A study of Drosophila melanogaster with 12 samples.

Results

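Full-length Yip7 was set against its truncated form, Yip7∆S, in flies that made Aβ42 in their neurons, over all genes that passed a filter on low counts. The 6 samples of this comparison, 3 with Yip7 and 3 with Yip7∆S, were chosen by their sample names from the 12 samples of the series. RNA-seq was carried out on heads of mated females kept at 29 °C, and per the labels all 6 samples were taken at 10 days. The pan-neuronal driver nSyb-Gal4 was present in every group, so that each UAS transgene was switched on in neurons, while a head also contains glia, fat body, muscle and sensory tissue. AD + Yip7 flies carried UAS transgenes for Aβ42 and yip7. AD + Yip7∆S flies carried UAS transgenes for Aβ42 and for a Yip7 without its putative transmembrane domain, an N-terminal stretch that overlaps the predicted signal peptide. AD flies carried the Aβ42 transgene without either form of Yip7, and Control flies (nSyb > w1118) carried the driver without a UAS transgene. The Aβ42 is the Arctic form behind a signal sequence from Argos. AD and Control flies, 3 samples each, are given here as the levels beside which both Yip7 groups can be read. Per the study's methods the 2 Yip7 transgenes were placed at the same landing site, and the lines were made by the same crosses so as to share a genetic background. Per the label, the third Control sample was taken at 2 weeks.

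Yip7 is a serine protease of the trypsin-like family that fly midgut cells make in large amounts for digestion, together with its Jonah relatives. A signal peptide usually sends such a protease into the secretory pathway, and a protein that lacks it is expected to remain in the cytosol. For Yip7, however, the study concluded that the protein is not secreted. It found Yip7 in late endosomes and lysosomes of neurons, a location that required the putative transmembrane domain. Aβ peptides, the material of amyloid plaques, aggregate and are met in cells by chaperones, which hold and refold misfolded proteins, and by degrading systems such as the lysosome, the proteasome and secreted or membrane peptidases of the neprilysin family.

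Between 38064884 and 41281822 reads were counted on genes in the AD + Yip7 samples, and between 39888862 and 41112864 in the AD + Yip7∆S samples. Levels are given as CPM (counts scaled to the total of each library, as adjusted by edgeR's TMM method), and a floor of 3 counts was 0.071 to 0.0795 CPM in these 6 samples. CPM is not corrected for gene length, so levels are compared between samples of 1 gene and not between genes. Of the 14162 genes, 10577 passed the filter and were tested. A log2 fold change is always the level in AD + Yip7 over that in AD + Yip7∆S unless another pair is named, so that a positive value means more RNA with the full-length form. P-values came from edgeR's quasi-likelihood test and were adjusted by the Benjamini-Hochberg method over the 10577 genes, with 0.05 as the threshold. They measure the spread between samples of the same group, which 1 fit estimated for each gene from all 12 samples, AD and Control included. The SEs rest on the same estimate. The first principal component of the 6 samples held 39.6% of the variance and did not divide them by group, since the AD + Yip7 samples had scores of -29.04 to -8.83 and AD + Yip7∆S replicate 2, at -12.0, lay among them, apart from AD + Yip7∆S replicates 1 and 3 (27.3 and 35.6). Sample quality weights from limma-voom lay between 1.00 and 1.86 for 5 of the 6 samples and at 0.229 for AD + Yip7∆S replicate 3. AD replicate 3 also stood apart in the level of neuron markers, which was -0.99 on the log2 scale relative to the Control mean, against -0.20 and -0.17 in the other AD samples.

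The number of single genes that differed between the full-length and the truncated form depended on the test. In AD + Yip7 against AD + Yip7∆S, 7 genes passed the adjusted threshold, 0.0662% of the genes tested. Ankle2, Dhc16F and Ilp3 were higher with full-length Yip7 (0.0284%), and rt, CG43168, JIL-1 and Nep3 were higher with Yip7∆S (0.0378%). DESeq2 called 123 genes on the 6 samples and 132 on all 12, and limma-voom called 137. All 7 were among the 123 and the 137. At an unadjusted p under 0.05 there were 1086 genes (10.3%), with AD + Yip7 higher for 576 (5.45%) and lower for 510 (4.82%). The samples of the 2 groups did not overlap for 1782 genes (16.8%). The median log2 fold change over all genes tested was -0.000569, with 90% of genes between -0.44 and 0.49. In the comparisons that share the AD samples, 191 genes differed between AD + Yip7 and AD (1.81%) and 196 between AD + Yip7∆S and AD (1.85%). Between AD and Control the number was 2750 (26%).

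**Figure D1:**
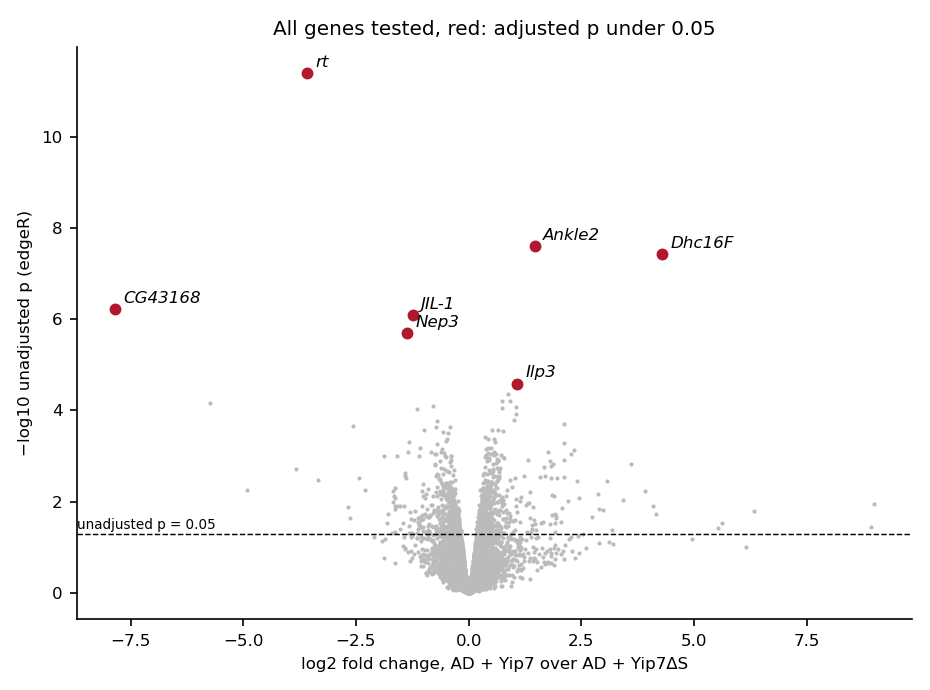
Log2 fold change of each of the 10577 genes tested (x axis, AD + Yip7 over AD + Yip7∆S) against -log10 of its unadjusted p from edgeR (y axis). The 7 genes past the adjusted threshold are drawn in red, and the dashed line marks an unadjusted p of 0.05, which 1086 genes pass.

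The smallest p was that of rt (rotated abdomen), a protein O-mannosyltransferase of the endoplasmic reticulum whose loss causes muscle defects in flies and, for the human counterpart, muscular dystrophy. It had 8.98, 7.89 and 7.84 CPM in AD + Yip7 heads, against 99.9, 96.7 and 100 CPM in AD + Yip7∆S heads. AD heads had 8.77, 8.95 and 10.6 CPM and Control heads 6.56, 9.62 and 9.19 CPM. The 3 AD + Yip7∆S samples thus stood about an order of magnitude above every other sample, and the AD + Yip7 samples lay within the range of AD and Control. With edgeR the log2 fold change of rt was -3.59 ± 0.14 (SE, n = 3 each), with an adjusted p of 4.28e-08 by the quasi-likelihood test.

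CG43168, a gene to which no role is given here, was near the floor in AD + Yip7 heads, with 0.106, 0.119 and 0.0245 CPM, against 25.3, 17.2 and 16.5 CPM in AD + Yip7∆S heads. It had 0.0503 to 0.0742 CPM in AD heads, and 0, 0 and 0.911 CPM in Control heads. Its RNA was thus abundant in the 3 AD + Yip7∆S samples and at or near the floor in 8 of the other 9. The log2 fold change of CG43168 was -7.84 ± 0.85 (SE, n = 3 each), with an adjusted p of 0.00158 by edgeR's quasi-likelihood test, and this fold rests on a few counts in the AD + Yip7 samples.

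JIL-1, a chromosomal histone kinase that keeps euchromatin open, had 66.8, 60.1 and 64.9 CPM in AD + Yip7 heads, against 159, 150 and 144 CPM in AD + Yip7∆S heads. AD heads had 60.5, 68.0 and 45.1 CPM, and Control heads 69.96, 55.2 and 58.04 CPM. Here too the AD + Yip7∆S samples stood above all others, and AD + Yip7 overlapped with AD and Control. JIL-1 had a log2 fold change of -1.24 ± 0.14 (SE, n = 3 each; adjusted p = 0.00174, edgeR).

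Nep3 encodes a member of the neprilysin family of zinc metallopeptidases, the family to which the Aβ-degrading neprilysin of mammals belongs. It had 64.4, 58.3 and 56.1 CPM in AD + Yip7 heads, against 126, 173 and 163 CPM in AD + Yip7∆S heads. In AD heads Nep3 stood at 60.4, 67.0 and 40.7 CPM, and in Control heads at 72.4, 64.0 and 67.2 CPM. All 3 AD + Yip7∆S samples were above all 9 others, which overlapped with one another. Its log2 fold change was -1.37 ± 0.17 (SE, n = 3 each; adjusted p = 0.00352, edgeR).

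Nep3 was the only one of the 24 neprilysin family genes tested that passed the adjusted threshold, a family looked up after the value of Nep3 was seen. The median log2 fold change of the family was -0.11, and 3 of the 24 members passed the unadjusted p, against 10.3% of all genes. Nep1 had 27.5, 27.7 and 22.7 CPM in AD + Yip7 heads, against 17.7, 17.7 and 14.3 CPM in AD + Yip7∆S heads, 18.9, 17.0 and 21.2 CPM in AD heads and 34.7, 40.9 and 42.3 CPM in Control heads. The AD + Yip7 samples of Nep1 lay above those of AD + Yip7∆S and below those of Control, with a log2 fold change of 0.65 ± 0.13 (SE, n = 3 each) that did not pass (adjusted p = 0.113, edgeR). Nep2, another member, had 88.3, 95.3 and 92.0 CPM in AD + Yip7 heads, against 81.2, 69.1 and 78.2 CPM in AD + Yip7∆S heads (log2 fold change 0.27, adjusted p = 0.464, edgeR). Nep1 shares an edge with Mipp2 on the other strand, which had a log2 fold change of -0.18.

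On the side of the full-length form, Ankle2, a nuclear envelope protein needed for the nuclear envelope to re-form after mitosis, had 126, 178 and 161 CPM in AD + Yip7 heads, against 54.8, 62.2 and 51.1 CPM in AD + Yip7∆S heads. Its levels were 58.3, 62.6 and 61.0 CPM in AD heads and 49.5, 52.3 and 49.8 CPM in Control heads. The 3 AD + Yip7 samples of Ankle2 were above all 9 others. The log2 fold change was 1.47 ± 0.12 (SE, n = 3 each; adjusted p = 0.000132, edgeR). Dhc16F, a dynein heavy chain of cilia and flagella, had 21.2, 10.8 and 20.5 CPM in AD + Yip7 heads, against 0.876, 1.04 and 0.752 CPM in AD + Yip7∆S heads. AD heads had 0.452 to 0.832 CPM of Dhc16F and Control heads 0.572 to 1.70 CPM, so that only the AD + Yip7 samples were high. Its log2 fold change was 4.29 ± 0.37 (SE, n = 3 each; adjusted p = 0.000132, edgeR).

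The insulin-like peptide gene Ilp3, which is expressed in the median neurosecretory cells of the brain, differed from the other 6 in its levels across groups. It had 5.49, 4.30 and 4.85 CPM in AD + Yip7 heads, against 2.201, 2.18 and 2.54 CPM in AD + Yip7∆S heads, 2.71, 3.56 and 2.24 CPM in AD heads and 11.2, 12.6 and 11.9 CPM in Control heads. The AD + Yip7 samples of Ilp3 were above all AD + Yip7∆S and AD samples and below all Control samples, and those of AD + Yip7∆S overlapped with AD. The log2 fold change was 1.08 ± 0.17 (SE, n = 3 each), with an adjusted p of 0.0388 by edgeR's quasi-likelihood test. Ilp3 was the least firm of the 7 calls, since it was lost with any single one of the 6 samples left out, at adjusted p values up to 0.154, and also without AD replicate 1, Control replicate 2 or Control replicate 3. Ilp3 lies within CG32052 on the other strand, and without a stated strand setting their reads cannot be told apart. CG32052 itself had a log2 fold change of -0.00396.

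**Figure D2:**
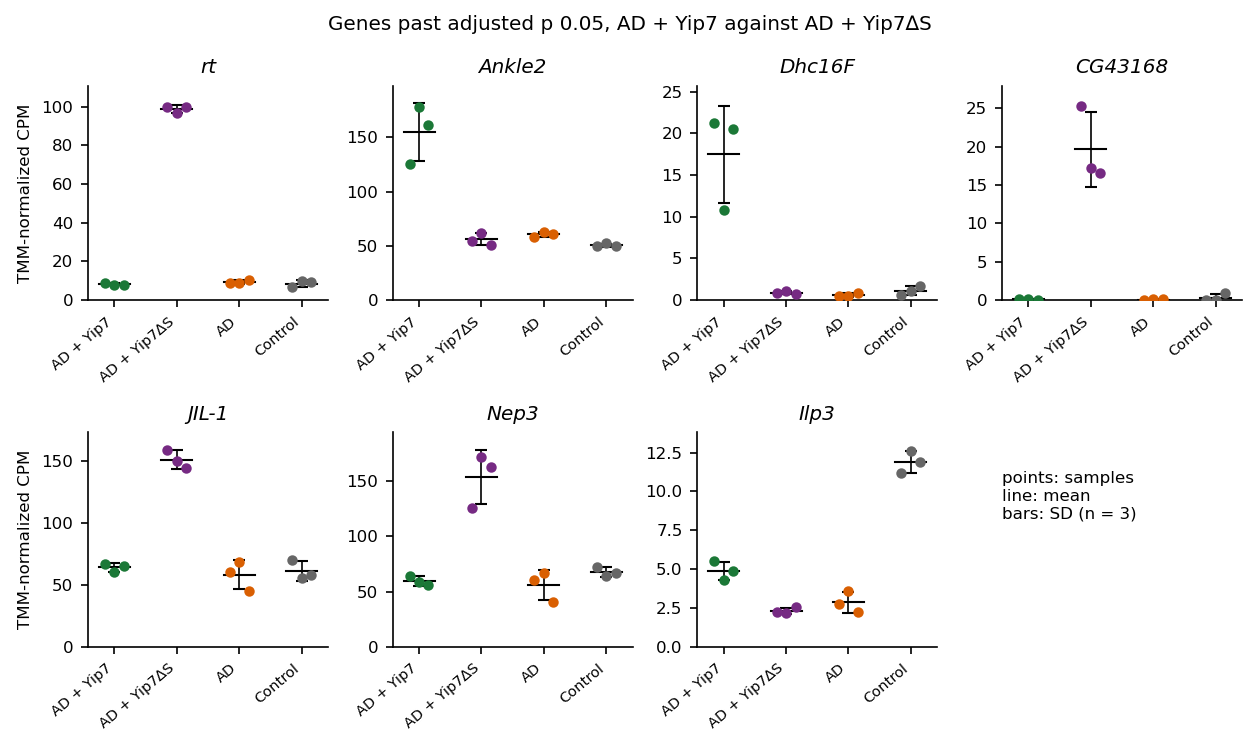
CPM (y axis, linear) of the 7 genes past the adjusted threshold in the 12 samples, by group (x axis); points are samples, lines are means and bars are SDs (n = 3 each). In rt, CG43168, JIL-1 and Nep3 only AD + Yip7∆S is high, in Ankle2 and Dhc16F only AD + Yip7 is high, and in Ilp3 AD + Yip7 lies between AD and Control.

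In the comparisons with AD, 6 of the 7 genes had 1 Yip7 group apart from the 3 remaining groups, as their plot shows. Against AD, the log2 fold change of rt was -0.20 in AD + Yip7 (adjusted p = 0.614) and 3.39 in AD + Yip7∆S (adjusted p = 5.54e-08). That of Nep3 was 0.09 in AD + Yip7 (adjusted p = 0.881) and 1.46 in AD + Yip7∆S (adjusted p = 0.00056). For Ankle2 it was 1.35 in AD + Yip7 (adjusted p = 6.53e-05) and -0.11 in AD + Yip7∆S (adjusted p = 0.723), all by edgeR's quasi-likelihood test. Ilp3 was higher in AD + Yip7 than in AD by 0.78 (adjusted p = 0.0355, edgeR), while its difference of AD + Yip7∆S from AD was -0.30 (adjusted p = 0.457).

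The 7 genes lie on 2 chromosomes of the dm6 assembly. On 3L lie CG43168 (FBgn0262787, positions 6275787 to 6277035, plus strand), Ilp3 (FBgn0044050, 9801298 to 9802120, minus strand), JIL-1 (FBgn0020412, 11078752 to 11093193, minus strand) and rt (FBgn0003292, 11584122 to 11587770, minus strand). On X lie Ankle2 (FBgn0028343, 17571854 to 17579229, minus strand), Dhc16F (FBgn0283476, 18064483 to 18078472, plus strand) and Nep3 (FBgn0031081, 19961297 to 19969323, plus strand). JIL-1 and rt are 490929 bases apart with 48 tested genes between them, and Ankle2 and Dhc16F are 485254 bases apart with 39 tested genes between them. At the unadjusted p, the share of genes called was 11.1% on 3L and 10.7% on X, against 8.05% to 10.4% on the other chromosome arms. Within 500000 bases of each of the 7 genes, 9.23% to 14.5% of the tested neighbours passed the unadjusted p, and the only neighbours past the adjusted threshold were Ankle2 and Dhc16F, each near the other. The crosses were made to give both forms a shared background, but each form was compared as a single fly line, so a difference between the lines and the form of the protein cannot be told apart. The study's Western blots also found less Yip7∆S than Yip7 protein after pan-neuronal expression. The amount of protein and its form cannot be told apart here either.

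Next in order of p came genes that did not pass with edgeR, at adjusted p values of 0.0589 to 0.117 by edgeR. Of the 12 with the smallest p on each side among genes whose samples did not overlap and that reached 1 CPM in a group, those with more RNA in AD + Yip7 beyond Ankle2, Dhc16F and Ilp3 included the neuropeptide genes Hug, Ilp5 and Trissin, the peptidase gene Nep1 and the flight muscle actin gene Act88F. Act88F had 13.8, 13.7 and 13.1 CPM in AD + Yip7 heads, against 4.97, 6.43 and 8.25 CPM in AD + Yip7∆S heads, 14.9, 14.9 and 13.3 CPM in AD heads and 15.9 to 25.01 CPM in Control heads. All Aβ42 samples of Act88F were below Control, and AD + Yip7∆S was the lowest group (log2 fold change 1.052 ± 0.185, SE, n = 3 each; adjusted p = 0.0653, edgeR). Mec2, of the stomatin family, had 12.8, 13.4 and 12.8 CPM in AD + Yip7 heads, against 8.47, 6.43 and 6.22 CPM in AD + Yip7∆S heads, 9.22, 6.97 and 8.92 CPM in AD heads and 14.0 to 17.9 CPM in Control heads. AD + Yip7 was above both other Aβ42 groups in Mec2 (log2 fold change 0.88 ± 0.15, SE, n = 3 each; adjusted p = 0.0589, edgeR). The cuticle protein gene Cpr47Ef (0.74), CG15247 (0.74) and Cyp6g2 (2.12) completed that side.

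With less RNA in AD + Yip7, beyond the 4 called genes, came the chaperone genes Hsp83 and Hsp23 together with FoxL1, sordd2 (-0.78), CG9689 (-1.14), CG7509 (-0.99), Pop4 and Orct2. Pop4, a protein subunit of the ribonuclease P complex, had 7.98, 7.44 and 7.54 CPM in AD + Yip7 heads, against 14.0, 11.0 and 12.3 CPM in AD + Yip7∆S heads, 8.32, 6.65 and 7.89 CPM in AD heads and 3.93 to 5.27 CPM in Control heads. All Aβ42 samples of Pop4 were above Control, and AD + Yip7∆S was the highest group (log2 fold change -0.70 ± 0.13, SE, n = 3 each; adjusted p = 0.0991, edgeR). Orct2, an organic cation transporter gene, had 42.2, 43.6 and 46.1 CPM in AD + Yip7 heads, against 60.0, 56.2 and 59.5 CPM in AD + Yip7∆S heads, 48.1, 46.4 and 47.6 CPM in AD heads and 6.91 to 7.87 CPM in Control heads. All Aβ42 samples of Orct2 were far above Control, and AD + Yip7∆S was the highest group (log2 fold change -0.41 ± 0.08, SE, n = 3 each; adjusted p = 0.113, edgeR). Pop4 shares an edge with CG8209 on the other strand (0.11).

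The transgenes themselves were read from the counts. The gene yip7 had 135, 173 and 123 CPM in AD + Yip7 heads, against 73.8, 88.1 and 81.1 CPM in AD + Yip7∆S heads, whose transgene lacks part of the coding sequence. AD heads, which carry no yip7 transgene, had 157, 159 and 94.2 CPM, and Control heads 5.97, 0 and 6.07 CPM. A high yip7 count therefore does not by itself mark a transgene, and the source of the yip7 reads in each group was not tested. Its log2 fold change between the Yip7 groups was 0.83 ± 0.63 (SE, n = 3 each), which did not pass with edgeR (adjusted p = 0.696) and passed with DESeq2 on the 6 samples alone (adjusted p = 2.83e-05). The neighbouring Jonah gene Jon65Aiii had 0, 38.8 and 0.931 CPM in AD + Yip7 heads, against 0.521, 4.80 and 0.0259 CPM in AD + Yip7∆S heads and 87.0 to 128 CPM in AD heads. Jon65Aiv had 0, 17.9 and 0.0735 CPM in AD + Yip7 heads, against 0.142, 0.849 and 0 CPM in AD + Yip7∆S heads and 32.8 to 48.5 CPM in AD heads. In both Jonah genes replicate 2 was the highest sample of either Yip7 group. These proteases have near-identical copies, and how reads that fit several of them were counted is not given in the sources used here.

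The eye colour gene w, whose mini-white form marks UAS insertions, had 213, 221 and 210 CPM in AD + Yip7 heads, against 185, 181 and 184 CPM in AD + Yip7∆S heads, 113, 108 and 141 CPM in AD heads and 111, 114.96 and 108 CPM in Control heads. Both Yip7 groups lay above both groups without a Yip7 transgene. Between them w had a log2 fold change of 0.23 ± 0.10 (SE, n = 3 each; adjusted p = 0.458, edgeR). The gene aos, part of which the Aβ42 transgene carries, had a log2 fold change of 0.08 (adjusted p = 0.813, edgeR). RNA of aos stood at 35.9, 40.4 and 36.4 CPM in AD + Yip7 heads, against 36.6, 34.4 and 35.9 CPM in AD + Yip7∆S heads, which overlapped.

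Midgut markers varied between samples of 1 group. Of the 12 midgut marker genes tested, 11 had a log2 fold change above 0 with a median of 2.81. At the unadjusted p 6 were higher (50%, against 5.45% of all genes). Their summed level was 149 to 637 CPM in AD + Yip7, 111 to 415 CPM in AD + Yip7∆S, 994 to 1454 CPM in AD and 34.8 to 146 CPM in Control. Without AD + Yip7 replicate 2 the median of the midgut markers was 0.13. For the digestive serine proteases, 9 of 10 tested members were above 0, with a median of 3.03 that became -0.10 without the same sample. In AD + Yip7 replicate 2, alphaTry had 15.4 CPM, against at most 1.70 CPM in the other 5 samples, and betaTry had 4.42 CPM, against at most 0.171 CPM. The medians of these lists thus rest largely on 1 sample. Among single members, Jon99Cii kept a log2 fold change of 2.36 to 4.21 with each sample left out. Its samples overlapped between the Yip7 groups, and it did not pass with edgeR (adjusted p = 0.18). The part of gut tissue in the other results was not tested.

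Many neuropeptide genes had more RNA with full-length Yip7. Neuropeptides and peptide hormones are short secreted signals made by small sets of neurons and endocrine cells, and they include the insulin-like peptides, which act on growth, feeding and metabolism. Of 46 such genes in the table, 40 were tested. The median log2 fold change was 0.25, against -0.000569 over all genes, and 31 of the 40 were above 0 (77.5%, against 49.8% of all genes). At the unadjusted p 17 were higher in AD + Yip7 (42.5%, against 5.45% of all genes) and 0 were lower (4.82% of all genes). The samples of 16 did not overlap, all with AD + Yip7 higher, against 8.27% of all genes. With edgeR Ilp3 was the 1 member past the adjusted threshold. DESeq2 on the 6 samples called 10 members, all higher, namely Akh, AstC, Capa, Crz, Hug, Ilp2, Ilp3, Ilp5, Nplp4 and Trissin. Over all genes it called 73 higher and 50 lower. The median lay between 0.17 and 0.34 when each of the 12 samples was left out in turn, with 12 to 18 members past the unadjusted p.

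**Figure D3:**
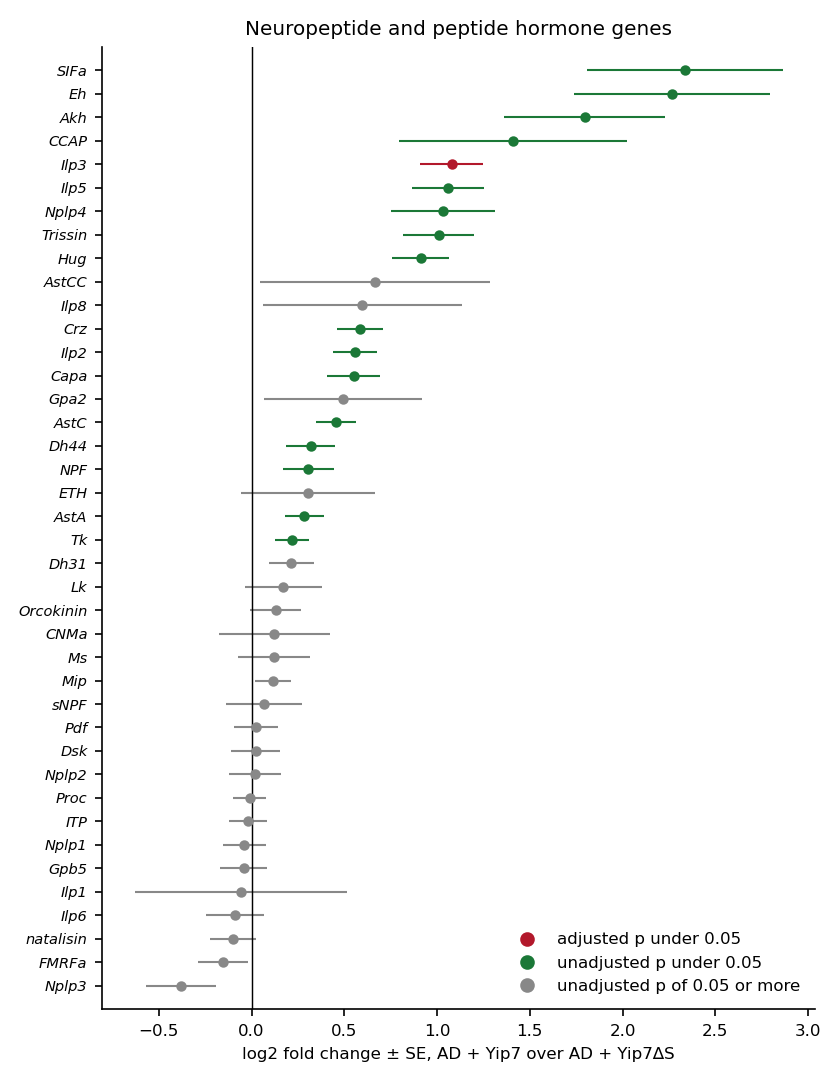
Log2 fold change ± SE (x axis, AD + Yip7 over AD + Yip7∆S, n = 3 each) of the 40 neuropeptide genes tested, in order of size. Ilp3 (red) passes the adjusted threshold, 16 others (green) pass the unadjusted p, all above 0, and 23 (grey) pass neither.

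The other insulin-like peptides of the same neurosecretory cells, Ilp2 and Ilp5, had the sign of Ilp3. Ilp5 had 7.26, 8.70 and 12.1 CPM in AD + Yip7 heads, against 3.93, 3.88 and 5.65 CPM in AD + Yip7∆S heads, 6.18, 6.63 and 5.64 CPM in AD heads and 13.1, 10.5 and 11.3 CPM in Control heads. The AD + Yip7 samples of Ilp5 did not overlap with those of AD + Yip7∆S, and the log2 fold change of 1.06 ± 0.19 (SE, n = 3 each) did not pass (adjusted p = 0.078, edgeR). Ilp2 had 23.9, 24.0 and 22.1 CPM in AD + Yip7 heads, against 15.98, 13.8 and 17.7 CPM in AD + Yip7∆S heads, 16.5, 20.5 and 15.96 CPM in AD heads and 49.7, 50.5 and 53.4 CPM in Control heads. AD + Yip7 heads were above both AD + Yip7∆S and AD heads in Ilp2, at less than the Control level, with a log2 fold change of 0.56 ± 0.12 (SE, n = 3 each; adjusted p = 0.14, edgeR). Ilp1 (-0.06) and Ilp6 (-0.09), an insulin-like peptide of the fat body, had log2 fold changes near 0. Ilp5 lies within CG43897 on the other strand, which had a log2 fold change of 0.16.

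Hug (hugin), which encodes a peptide of feeding-regulating neurons in the subesophageal zone, had 15.5, 22.6 and 24.2 CPM in AD + Yip7 heads, against 10.0, 11.96 and 11.1 CPM in AD + Yip7∆S heads, 23.1, 19.2 and 23.8 CPM in AD heads and 34.1, 39.6 and 35.2 CPM in Control heads. The 3 AD + Yip7∆S samples were the lowest of the 12, and AD + Yip7 overlapped with AD. For Hug the log2 fold change was 0.91 ± 0.16 (SE, n = 3 each; adjusted p = 0.0643, edgeR), and it overlaps Octbeta3R on the other strand (-0.09). Trissin, a cysteine-rich neuropeptide gene, had 9.41, 8.22 and 7.47 CPM in AD + Yip7 heads, against 4.26, 4.88 and 3.32 CPM in AD + Yip7∆S heads, 3.97, 5.93 and 7.04 CPM in AD heads and 14.8, 15.1 and 15.6 CPM in Control heads. Trissin in AD + Yip7 was above every AD + Yip7∆S and AD sample (log2 fold change 1.01 ± 0.19, SE, n = 3 each; adjusted p = 0.0991, edgeR). Crz (corazonin), a stress and metabolic peptide, had 12.5, 12.1 and 10.6 CPM in AD + Yip7 heads, against 7.65, 7.98 and 7.80 CPM in AD + Yip7∆S heads, 9.78, 11.4 and 13.5 CPM in AD heads and 28.6 to 34.5 CPM in Control heads. AD + Yip7 thus overlapped with AD in Crz, and AD + Yip7∆S lay below both (log2 fold change 0.58, adjusted p = 0.147, edgeR).

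Akh, the adipokinetic hormone that mobilizes stored fat and sugar and acts much as glucagon does in mammals, went another way between AD and Control. It had 17.9, 40.2 and 31.4 CPM in AD + Yip7 heads, against 6.63, 9.03 and 10.2 CPM in AD + Yip7∆S heads, 37.5, 52.3 and 40.3 CPM in AD heads and 18.7, 8.67 and 3.96 CPM in Control heads. The AD + Yip7∆S samples of Akh lay within the Control range and the AD + Yip7 samples overlapped with AD. Its log2 fold change was 1.80 ± 0.44 (SE, n = 3 each; adjusted p = 0.165, edgeR). AkhR, the receptor for this hormone, had 74.7, 86.8 and 87.8 CPM in AD + Yip7 heads, against 60.3, 61.2 and 63.1 CPM in AD + Yip7∆S heads (log2 fold change 0.43, adjusted p = 0.163, edgeR). Nplp4 was also higher in AD + Yip7, with 40.1, 37.3 and 31.4 CPM, against 22.3, 10.1 and 20.8 CPM in AD + Yip7∆S heads and 12.6, 17.5 and 22.6 CPM in AD heads (log2 fold change 1.03, adjusted p = 0.24, edgeR).

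Scarce peptides had the largest log2 fold changes. SIFa, a peptide of few neurons that acts on courtship and feeding, had 1.11, 0.475 and 0.588 CPM in AD + Yip7 heads, against 0.0237, 0.121 and 0.285 CPM in AD + Yip7∆S heads and 8.08 to 9.11 CPM in Control heads. Eh, the eclosion hormone, had 0.874, 0.523 and 0.637 CPM in AD + Yip7 heads, against 0.237, 0.146 and 0.0259 CPM in AD + Yip7∆S heads. Some of these samples were at or below the floor, and neither SIFa (log2 fold change 2.34 ± 0.53, SE, n = 3 each; adjusted p = 0.163, edgeR) nor Eh (2.27 ± 0.53; adjusted p = 0.163, edgeR) passed. Among the abundant peptides, AstC had 31.0, 26.5 and 28.1 CPM in AD + Yip7 heads, against 20.6, 19.6 and 22.3 CPM in AD + Yip7∆S heads, and Capa had a log2 fold change of 0.55. The clock output peptide Pdf, with 68.0, 61.1 and 59.0 CPM in AD + Yip7 heads, against 56.7, 56.8 and 71.5 CPM in AD + Yip7∆S heads, overlapped between the groups (log2 fold change 0.02). The lowest member was Nplp3, with a log2 fold change of -0.38.

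Of all 40 neuropeptide genes tested, 22 were lower in AD than in Control at the adjusted threshold (11.6% of all genes) and 4 were higher (14.4%). Against the shared AD samples, 26 lay above 0 in AD + Yip7 (53.9% of all genes), with 1 higher (0.945%) and 1 lower (0.86%) at the adjusted threshold. In AD + Yip7∆S 25 lay below 0 (47.1% of all genes), with 0 higher (0.87%) and 6 lower (0.983%). The mean log2 level of the 40 genes relative to the Control mean was -0.37, -0.34 and -0.39 in AD + Yip7, against -0.93, -0.85 and -0.64 in AD + Yip7∆S and -0.60, -0.52 and -0.58 in AD. By this mean AD + Yip7 was the highest of the 3 groups with Aβ42 and AD + Yip7∆S the lowest, and all 9 samples were below Control. The summed level did not have this order. It was 3805 to 4840 CPM in AD + Yip7 and 3899 to 4855 CPM in AD + Yip7∆S, which overlapped. In AD the sum was 3564 to 3858 CPM, and in Control 4979 to 5260 CPM. Because whole heads were measured, fewer peptidergic cells and less RNA per cell cannot be told apart. Of the 8 neuron markers tested, 0 passed the unadjusted p, with a median of 0.02 and summed levels of 2479 to 2838 CPM in AD + Yip7, against 2348 to 2723 CPM in AD + Yip7∆S. Neuropeptide receptors had a median of 0.05. At the unadjusted p 4 of 31 were higher (12.9%, against 5.45% of all genes) and 2 were lower (6.45%, against 4.82% of all genes).

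**Figure D4:**
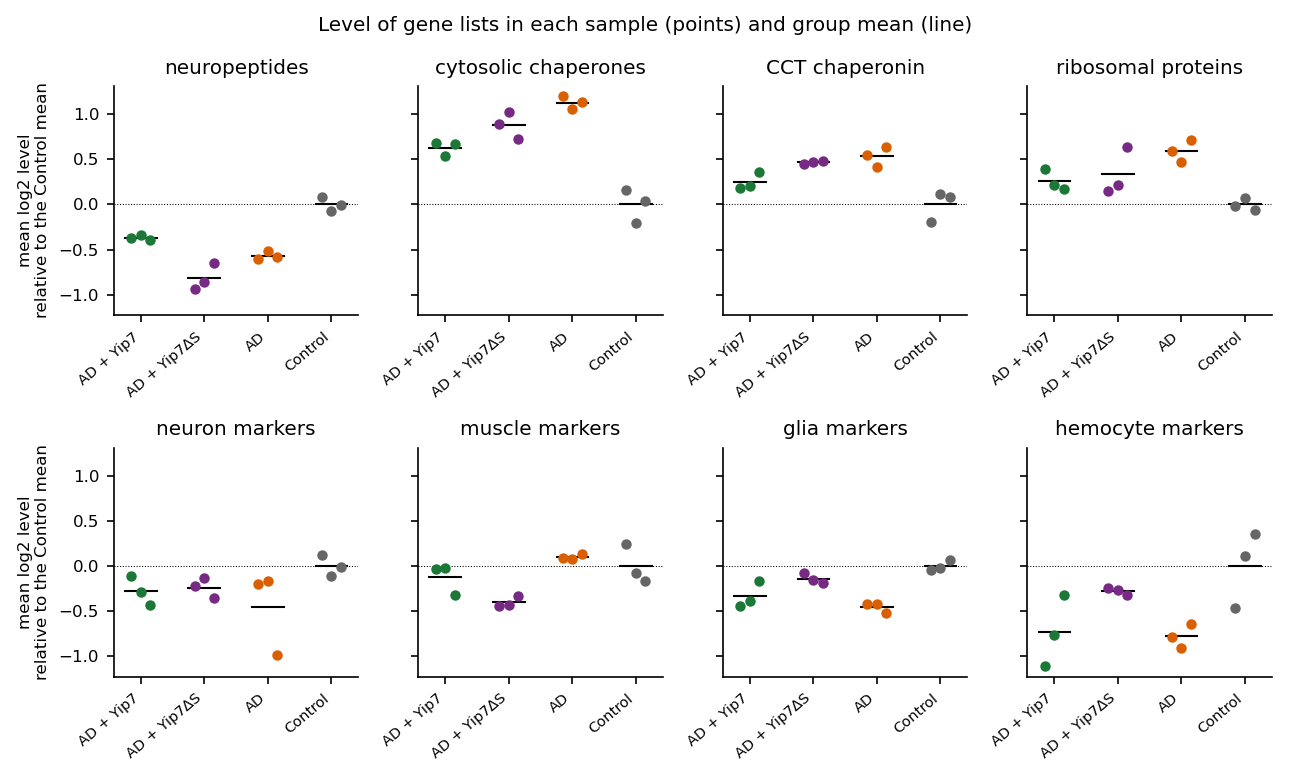
Mean log2 level of 8 gene lists in each sample (y axis, relative to the Control mean) by group (x axis); points are samples and lines are group means. Neuropeptides lie highest among the Aβ42 groups in AD + Yip7 and lowest in AD + Yip7∆S, while cytosolic chaperones lie lowest among the same groups in AD + Yip7 and highest in AD.

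Cytosolic chaperones went the other way. Of 27 members tested, 21 had a log2 fold change below 0 (77.8%, against 50.2% of all genes), with a median of -0.27. At the unadjusted p 9 were lower (33.3%, against 4.82% of all genes). Hsc70-1 was the 1 member that was higher (3.7%, against 5.45% of all genes), with a log2 fold change of 0.56. The samples of 13 did not overlap with AD + Yip7 lower, against 8.58% of all genes. With edgeR 0 passed the adjusted threshold. DESeq2 on the 6 samples called 4 of the 27 members, Hsp83, DnaJ-1, Hsp23 and Hsp26, all lower, and over all genes it called 50 lower and 73 higher. The median lay between -0.37 and -0.18 when each sample was left out, with 6 to 15 members past the unadjusted p.

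Hsp83, the fly Hsp90, which matures signalling proteins, had 569, 471 and 510 CPM in AD + Yip7 heads, against 744, 986 and 844 CPM in AD + Yip7∆S heads, 1292, 1014 and 894 CPM in AD heads and 630, 635 and 642 CPM in Control heads. All AD + Yip7 samples of Hsp83 were below all Control samples, and AD + Yip7∆S lay above Control and overlapped with AD. The log2 fold change was -0.73 ± 0.14 (SE, n = 3 each; adjusted p = 0.113, edgeR). DnaJ-1, an Hsp40 co-chaperone that delivers substrates to Hsp70, had 100, 85.1 and 92.4 CPM in AD + Yip7 heads, against 133, 173 and 155 CPM in AD + Yip7∆S heads, 240, 171 and 155 CPM in AD heads and 109, 85.5 and 78.9 CPM in Control heads. AD + Yip7 overlapped with Control in DnaJ-1 and not with AD + Yip7∆S (log2 fold change -0.73).

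The small heat shock genes Hsp23 and Hsp26, whose proteins bind unfolded clients, were above Control in every Aβ42 sample. Hsp23 had 83.6, 74.6 and 103 CPM in AD + Yip7 heads, against 131, 138 and 121 CPM in AD + Yip7∆S heads, 137, 128 and 152 CPM in AD heads and 19.2 to 21.1 CPM in Control heads. Hsp26 had 63.0, 47.9 and 71.3 CPM in AD + Yip7 heads, against 88.7, 106 and 79.3 CPM in AD + Yip7∆S heads, 118, 94.6 and 115.3 CPM in AD heads and 11.6 to 16.4 CPM in Control heads. In both genes AD + Yip7 was below AD + Yip7∆S without overlap, by -0.58 ± 0.12 for Hsp23 (SE, n = 3 each; adjusted p = 0.117, edgeR) and -0.59 for Hsp26. AD + Yip7∆S overlapped with AD in both. Against AD the log2 fold change of Hsp23 was -0.67 in AD + Yip7 (adjusted p = 0.0112) and -0.10 in AD + Yip7∆S (adjusted p = 0.771), and that of Hsp83 was -1.05 in AD + Yip7 (adjusted p = 0.00288) and -0.31 in AD + Yip7∆S (adjusted p = 0.325), by edgeR. The Hsp70 copies, whose near-identical reads are hard to assign, had log2 fold changes of -0.67 to -0.38.

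The CCT chaperonin, which folds actin and tubulin, had 8 of 8 subunits below 0 (50.2% of all genes) with a median of -0.23, and 4 of them (CCT2, CCT4, CCT5 and CCT8) were lower at the unadjusted p (4.82% of all genes). CCT5 had 89.9, 90.8 and 99.9 CPM in AD + Yip7 heads, against 109, 110 and 114 CPM in AD + Yip7∆S heads, which did not overlap (log2 fold change -0.25, adjusted p = 0.451, edgeR). The number of subunits past the unadjusted p was 0 without AD + Yip7 replicate 2 and 1 without replicate 1. Of 18 genes for folding in the endoplasmic reticulum 16 were below 0, with a median of -0.16. At the unadjusted p 5 were lower (27.8%, against 4.82% of all genes), among them Hsc70-3, the BiP of flies. Hsc70-3 had 2386, 2336 and 2959 CPM in AD + Yip7 heads, against 3925, 3629 and 2841 CPM in AD + Yip7∆S heads, where replicate 3 fell within the AD + Yip7 range (log2 fold change -0.44, adjusted p = 0.323, edgeR). In Control heads Hsc70-3 stood at 470 to 527 CPM.

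**Figure D5:**
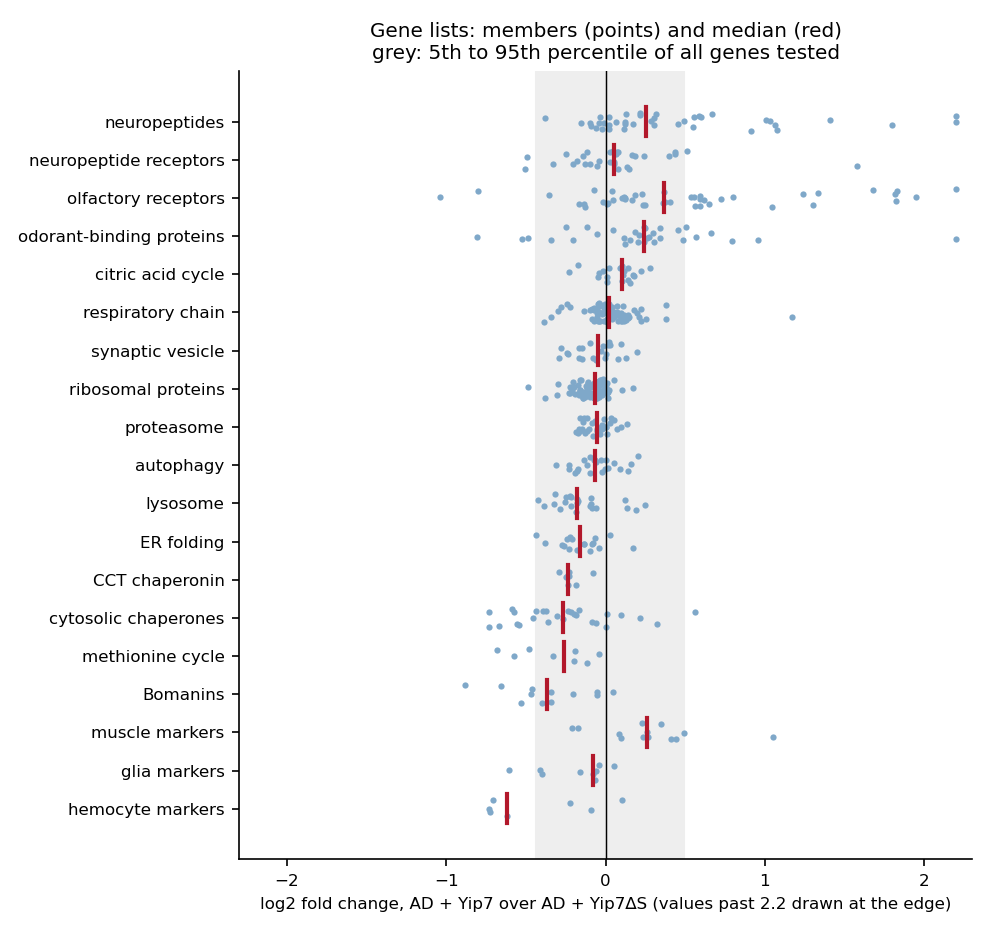
Log2 fold change (x axis, AD + Yip7 over AD + Yip7∆S) of the members of 19 gene lists (points) with the list median (red), beside the range from the 5th to the 95th percentile of all genes tested (grey, -0.44 to 0.49). Neuropeptides, olfactory receptors and muscle markers have medians above 0 (0.25, 0.37 and 0.26), and cytosolic chaperones, methionine cycle genes and hemocyte markers have medians below 0 (-0.27, -0.26 and -0.62).

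Of the systems that degrade proteins, the 32 proteasome subunits had a median of -0.06 with 0 past the unadjusted p, and the 19 subunits of the vacuolar proton ATPase, which acidifies lysosomes, had a median of 0.00233 with 0 past it. Of 39 endosomal genes 2 were lower at the unadjusted p (5.13%, median -0.04), and of 23 autophagy genes 1 was lower (4.35%, median -0.06). Both shares were near the 4.82% of all genes. Below 0 were 28 endosomal genes (71.8%) and 16 autophagy genes (69.6%), against 50.2% of all genes. The samples of 7 endosomal and 3 autophagy genes did not overlap with AD + Yip7 lower (8.58% of all genes). Those of 1 and 2 did not overlap with AD + Yip7 higher (8.27%). The autophagy receptor ref(2)P, the fly p62, had 366, 360 and 412 CPM in AD + Yip7 heads, against 469, 428 and 435 CPM in AD + Yip7∆S heads and 261 to 292 CPM in Control heads. Its samples did not overlap between the Yip7 groups (log2 fold change -0.23, adjusted p = 0.456, edgeR). Of 23 lysosomal genes 19 were below 0 (82.6%, against 50.2% of all genes), with a median of -0.18 that ranged from -0.29 without AD + Yip7 replicate 3 to -0.08 without AD + Yip7∆S replicate 3. Lower at the unadjusted p were 3 of the 23 (13.04%, against 4.82% of all genes). These 3 were Ppt1, which removes fatty acids from proteins, the cholesterol transporter Npc1a and the saposin precursor Sap-r. Hexo1, a hexosaminidase, was the 1 member that was higher (4.35%, against 5.45% of all genes).

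Genes for protein synthesis and for the respiratory chain lay close to the median of all genes. The 85 cytosolic ribosomal protein genes had a median of -0.07, and 75 were below 0, with 2 lower at the unadjusted p (2.35%, against 4.82% of all genes). Without AD + Yip7∆S replicate 3 the median was 0.085 and 6 were below 0. Their mean log2 level relative to Control was 0.63 in AD + Yip7∆S replicate 3, against 0.15 and 0.22 in the other AD + Yip7∆S samples. Against AD, all 85 were below 0 in AD + Yip7 (median -0.33) and 83 in AD + Yip7∆S (median -0.25). For all 10577 genes these numbers were 4877 and 4977. At the unadjusted p 57 and 19 of the 85 were lower than in AD, against 736 and 803 of all genes, and 0 passed the adjusted threshold. The 73 genes of the respiratory chain and ATP synthase had a median of 0.02. Of the 20 citric acid cycle genes 15 were above 0 with a median of 0.10, and 2 were higher at the unadjusted p (10%, against 5.45% of all genes). One of these was kdn, the citrate synthase, with 629, 682 and 634 CPM in AD + Yip7 heads, against 584, 553 and 466 CPM in AD + Yip7∆S heads (log2 fold change 0.28, adjusted p = 0.4, edgeR). Synaptic vesicle and active zone genes (22) had a median of -0.05 with 1 lower at the unadjusted p (4.55%, against 4.82% of all genes).

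The methionine cycle and transsulfuration genes, which turn methionine into cysteine by way of homocysteine, were all below 0 (8 of 8, median -0.26). At the unadjusted p 2 were lower (25%, against 4.82% of all genes). Cbs, cystathionine beta-synthase, had 30.8, 19.8 and 33.1 CPM in AD + Yip7 heads, against 42.1, 52.4 and 39.9 CPM in AD + Yip7∆S heads, 47.6, 51.4 and 46.6 CPM in AD heads and 20.01, 27.6 and 27.3 CPM in Control heads. Ahcy, which splits S-adenosylhomocysteine, had 128, 92.2 and 130 CPM in AD + Yip7 heads, against 149, 188 and 152 CPM in AD + Yip7∆S heads, 188, 199 and 213 CPM in AD heads and 73.6, 88.4 and 83.9 CPM in Control heads. Neither Cbs (log2 fold change -0.68, adjusted p = 0.232, edgeR) nor Ahcy (-0.48, adjusted p = 0.271, edgeR) passed, although their samples did not overlap between the Yip7 groups.

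The study names 19 genes as shifted by Yip7 and not by the truncated form. That list was drawn from these samples and is not independent evidence of its direction. Above 0 were 16 (median 0.26), and Ilp3 alone passed the adjusted threshold. At the unadjusted p 9 were higher (47.4%, against 5.45% of all genes) and 2 were lower (10.5%, against 4.82% of all genes). The serotonin transporter gene SerT had 40.9, 47.2 and 35.4 CPM in AD + Yip7 heads, against 33.7, 30.1 and 29.2 CPM in AD + Yip7∆S heads (log2 fold change 0.41, adjusted p = 0.229, edgeR). The glutamine synthetase gene Gs1 had 273, 214 and 273 CPM in AD + Yip7 heads, against 189, 196 and 224 CPM in AD + Yip7∆S heads, with an overlap of 1 sample (log2 fold change 0.32, adjusted p = 0.43, edgeR). The receptor gene Pdfr (0.13), CG1640 (0.04), CG4335 (0.05) and Pisd (-0.01) had log2 fold changes near 0, and the signs of the last 3 turned when single samples were left out.

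Among chemosensory genes, 37 of the 45 olfactory receptor genes tested were above 0 (82.2%), with a median of 0.37. At the unadjusted p 8 were higher (17.8%, against 5.45% of all genes) and 1 was lower (2.22%, against 4.82% of all genes). Most of these receptors had well under 1 CPM, such as Or22a with 0.477, 0.214 and 0.269 CPM in AD + Yip7 heads, against 0.0947, 0.0243 and 0.0519 CPM in AD + Yip7∆S heads. The co-receptor Orco, which every ligand-binding Or needs, had 102, 105 and 73.6 CPM in AD + Yip7 heads, against 49.8, 66.7 and 76.1 CPM in AD + Yip7∆S heads, so that 1 sample overlapped (log2 fold change 0.54, adjusted p = 0.434, edgeR). The list median ranged from 0.18 without AD + Yip7∆S replicate 1 to 0.68 without AD + Yip7∆S replicate 3. Of 32 odorant-binding protein genes 24 were above 0 (median 0.24). At the unadjusted p 5 were higher (15.6%, against 5.45% of all genes) and 1 was lower (3.1%, against 4.82% of all genes). The median was 0.11 without AD + Yip7∆S replicate 1 and 0.41 without AD + Yip7∆S replicate 3, where 16 members passed the unadjusted p. Obp56a had 31.1, 24.8 and 27.9 CPM in AD + Yip7 heads, against 14.5, 13.5 and 20.5 CPM in AD + Yip7∆S heads (log2 fold change 0.79, adjusted p = 0.164, edgeR). Gustatory receptors leaned the other way, with 9 of 13 tested genes below 0 (median -0.24). Of 21 ionotropic receptor genes 15 were above 0 (median 0.19).

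Markers of other tissues of the head moved along with the groups in part. Of 13 muscle markers 11 were above 0 (median 0.26) and 7 were higher at the unadjusted p (53.8%, against 5.45% of all genes), with summed levels of 4767 to 5837 CPM in AD + Yip7, against 4534 to 4909 CPM in AD + Yip7∆S. The muscle myosin gene Mhc had 1738, 1812 and 1380 CPM in AD + Yip7 heads, against 1394, 1259 and 977 CPM in AD + Yip7∆S heads, with an overlap of 1 sample. All 8 fat body markers were above 0 (median 0.21), and 2 were higher at the unadjusted p (25%, against 5.45% of all genes). Their sums were 109517 to 126869 CPM in AD + Yip7, against 94757 to 98529 CPM in AD + Yip7∆S, most of it from the yolk protein genes. Without AD + Yip7 replicate 3 their median was 0.00596 and 4 of the 8 were above 0. Hemocyte markers lay the other way, with 6 of 7 below 0 (median -0.62) and 3 lower at the unadjusted p (42.9%, against 4.82% of all genes). Their median was -0.22 without AD + Yip7 replicate 1 and -0.28 without AD + Yip7∆S replicate 3. Of 9 glia markers 8 were below 0 (median -0.08) and 3 were lower at the unadjusted p (33.3%, against 4.82% of all genes). Their median was -0.23 without AD + Yip7∆S replicate 3. The astrocyte gene alrm had 39.8, 45.4 and 57.97 CPM in AD + Yip7 heads, against 79.4, 60.3 and 78.3 CPM in AD + Yip7∆S heads. The part of these tissues in the neuropeptide and chaperone values was not tested.

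Some immune genes, Drs among them, did not overlap between the Yip7 groups, and others were high in single samples. Drs (drosomycin), an antifungal peptide of the Toll pathway, had 24.3, 18.7 and 21.7 CPM in AD + Yip7 heads, against 7.05, 2.23 and 5.55 CPM in AD + Yip7∆S heads, 18.6, 8.09 and 9.63 CPM in AD heads and 2.19, 7.76 and 3.67 CPM in Control heads. AD + Yip7 was above the other groups without overlap, and the log2 fold change of 2.12 ± 0.46 (SE, n = 3 each) did not pass (adjusted p = 0.151, edgeR). Of 17 antimicrobial peptide genes 14 were above 0 (median 0.75). At the unadjusted p 1 was higher (5.88%, against 5.45% of all genes) and 1 lower (5.88%, against 4.82% of all genes). The samples of 4 did not overlap with AD + Yip7 higher (8.27% of all genes), and those of 1 with AD + Yip7 lower (8.58%). DESeq2 on the 6 samples called AttA, DptA and Drs, all higher, and over all genes it called 73 higher and 50 lower. The level of DptB was 61.2 CPM in AD + Yip7 replicate 3, against 4.71 to 9.10 CPM in the other 5 samples. Without that sample the median of the list was 0.021. Of 12 Bomanin genes, short peptides of the same pathway, 11 were below 0 (median -0.37). At the unadjusted p 2 were lower (16.7%, against 4.82% of all genes). Without AD + Yip7∆S replicate 3 their median was -0.16 and 0 passed it. The stress gene TotM had 235 CPM and the immune gene Diedel 43.1 CPM in AD + Yip7∆S replicate 2, against at most 14.1 and 3.21 CPM in the other 5 samples.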

How the data were processed

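Poly(A) RNA from heads (20 per sample) was sequenced as 150 bp read pairs. Per the study's methods the authors used fastp for trimming, HISAT2 for mapping and HTSeq-count for counting, and what they deposited are unnormalized counts of 14162 genes in 12 samples. The submitters' processing notes name dm6, HISAT2 2.1.0, StringTie 1.3.1 and DESeq2 1.36.0. The strand setting and the annotation version are not given in the sources used here, and overlapping or near-identical genes can share reads. The labels give heads as the tissue and also mention dissected brains.

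Here R 4.3.3 was used. Low genes were removed by filterByExpr with the 4 groups, counts were scaled by TMM and all 12 samples entered 1 quasi-likelihood fit in edgeR 4.0.16 (prior count of 2 for log2 levels), with Benjamini-Hochberg adjustment within each comparison. The 3585 genes that did not pass the filter were not tested. The procedure was tested on simulated data. Total counts per sample limit precision to the floor of 3 counts given with the results, which covers counting error only. Alternatives were DESeq2 1.42.0, limma-voom 3.58.1, other scalings and filters, fewer samples, a fold threshold, the replicate number as a block, and each sample left out. Replicate numbers are shared between groups but were not taken as pairs.

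Members and gene lists (45, by symbol) were chosen with earlier results of these data known. Named genes were those past the adjusted threshold, the 12 per direction with the smallest p among genes whose samples do not overlap and that reach 1 CPM in a group, the transgene genes with the Jon65A neighbours, the 19 genes the study names with 5 chaperones, and from each list the member with the smallest p per direction. Other genes were named as examples after their values were seen. Coordinates are from the Ensembl BDGP6 annotation, which holds 14132 of the symbols. Lists are described by counts and medians. No sequences are shown.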

Additional observations from a re-analysis of the deposited data

How the results depend on the processing

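The count of genes between AD + Yip7 and AD + Yip7∆S depended on the tool. It was 7 with edgeR, 132 with DESeq2 on 12 samples, 123 with DESeq2 on the 6 samples, 137 with limma-voom and 16 without the filter on low counts. All 7 were among the 123 and the 137. It was 6 with edgeR on the 6 samples and 6 to 15 with each sample left out, namely 13 without AD + Yip7 replicate 1, 15 without AD + Yip7 replicate 3 and 12 without Control replicate 1. Between AD + Yip7 and AD the 191 genes became 434 and 494 with DESeq2 (12 and 6 samples) and 83 to 263 with samples left out. Between AD + Yip7∆S and AD the 196 became 483 and 360, 120 with edgeR on the 6 samples, and 74 to 217. With the replicate number as a block the counts were 6, 149 and 186. Deviations of same-numbered samples correlated at 0.07, 0.29 and 0.01, so the number was not taken as a pairing. The cause of these differences was not tested.

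Of the 7 genes, 6 kept their call under every alternative that tested them; CG43168 dropped out of the filter of 10 counts in every sample. Ilp3 lost it in 11 of 21 alternatives, with adjusted p values of 0.0877 under the block and 0.142 with edgeR on the 6 samples. With single samples left out, signs turned for 6 named genes that were not called. Jon65Aiii ranged from -1.90 to 5.54 and Jon65Aiv from -3.04 to 6.29 (both lowest without AD + Yip7 replicate 2), CG1640 from -0.021 to 0.11, CG4335 from -0.049 to 0.12, Oat from -0.027 to 0.48 and Pisd from -0.095 to 0.064. Over all alternatives, 113 values of named genes without a call gained one, 11 lost one (all of Ilp3), 9 turned sign and 1640 stayed on the same side of the threshold, and 34 list medians moved by more than the spread.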

Other observations

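Genes outside the lists that did not pass with edgeR but passed with DESeq2 on the 6 samples are given here as values, and were chosen after their values were seen. Cyp6g2, a cytochrome P450 gene, had 18.7, 18.2 and 16.2 CPM in AD + Yip7 heads, against 2.11, 5.99 and 4.12 CPM in AD + Yip7∆S heads and 16.7, 33.9 and 18.2 CPM in AD heads. The AD + Yip7∆S samples of Cyp6g2 were below all others of these groups (log2 fold change 2.12 ± 0.41, SE, n = 3 each; adjusted p = 0.111, edgeR). Cyp6g2 shares an edge with Cyp6g1 on the other strand (-0.34). The juvenile hormone acid methyltransferase gene jhamt, the last step of juvenile hormone synthesis, had 6.23, 9.79 and 6.51 CPM in AD + Yip7 heads, against 2.34, 3.25 and 4.49 CPM in AD + Yip7∆S heads and 5.86, 13.7 and 6.539 CPM in AD heads (log2 fold change 1.16, adjusted p = 0.325, edgeR). The methionine sulfoxide reductase gene MsrA, which repairs oxidized methionine, had 301, 444 and 415 CPM in AD + Yip7 heads, against 246, 188 and 164 CPM in AD + Yip7∆S heads (log2 fold change 0.96, adjusted p = 0.294, edgeR). The iron-binding transferrin gene Tsf1 had 1964, 1650 and 2109 CPM in AD + Yip7 heads, against 1504, 1114 and 1320 CPM in AD + Yip7∆S heads (log2 fold change 0.54, adjusted p = 0.34, edgeR).

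Lower in AD + Yip7 was Chc, the clathrin heavy chain of endocytic vesicles, with 348, 374 and 401 CPM, against 576, 519 and 493 CPM in AD + Yip7∆S heads and 377, 345 and 345 CPM in AD heads. The AD + Yip7∆S samples of Chc were above those of both other Aβ42 groups (log2 fold change -0.50, adjusted p = 0.146, edgeR). The Bax inhibitor gene BI-1, an anti-death protein of the endoplasmic reticulum, had 243, 263 and 314 CPM in AD + Yip7 heads, against 381, 370 and 407 CPM in AD + Yip7∆S heads (log2 fold change -0.50, adjusted p = 0.163, edgeR). Tret1-1, a trehalose transporter of the glia that form the blood-brain barrier, had 489, 485 and 507 CPM in AD + Yip7 heads, against 659, 615 and 866 CPM in AD + Yip7∆S heads (log2 fold change -0.53, adjusted p = 0.389, edgeR). The forkhead gene FoxL1 was at 0.0265, 0.0238 and 0 CPM in AD + Yip7 heads, against 0.663, 1.92 and 0.544 CPM in AD + Yip7∆S heads, 4.02, 5.36 and 6.44 CPM in AD heads and 0, 0 and 0.168 CPM in Control heads. All 3 AD + Yip7 samples of FoxL1 were below the floor, and the difference from AD + Yip7∆S did not pass (adjusted p = 0.0643, edgeR).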
